A study of Mus musculus with 32 samples.

Results

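The RNAs described here are abundant nuclear and host-gene long non-coding RNAs of mouse leukemia cells, chosen by symbol from a list of 9: Malat1, Neat1, Kcnq1ot1, Gas5, Snhg1, Snhg12, Meg3, H19 and Norad. The symbol had to be a gene name in both RNA-seq tables, and 8 of the 9 met this, of 23620 genes that both tables hold. Norad is listed under its older symbol 2900097C17Rik, which RefSeq gives as a synonym at the same place, and its values are given apart from the 8. The list was selected from peak counts of these same libraries, so the counts are a description and carry no test. Of the 8, 4 had an input-filtered peak under their own Ensembl ID in at least 1 eCLIP library, as did 37.9% of the genes in both tables.

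IGF2BP3 is an RNA-binding protein that is made in the embryo and again in several leukemias, where it binds and stabilizes mRNAs. Long non-coding RNAs such as Malat1 and Neat1 stay in the nucleus, in speckles and paraspeckles, and are among the RNAs that cells make in large amounts. Host-gene RNAs such as Gas5, Snhg1 and Snhg12 carry small nucleolar RNAs (snoRNAs) in their introns, which guide the modification of ribosomal RNA, while the spliced host RNA is often short-lived.

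Crosslinking and immunoprecipitation (eCLIP) with an antibody to IGF2BP3 was done in WT/MLL-Af4 cells, which carry the leukemia fusion MLL-Af4 from a retrovirus and an intact Igf2bp3 gene. Lin− cells are bone marrow cells depleted of lineage-positive cells, transduced and grown in culture with G418, and gave 3 biological and 3 technical libraries. CD11b+ cells, myeloid cells selected by magnetic beads from splenic tumors of leukemic mice, gave 2 biological and 2 technical libraries. The study states splenic tumors as the source of CD11b+ cells. The names of their eCLIP libraries start with bm, like those of Lin− cells, and what bm stands for was not tested. Each eCLIP library has a size-matched input (smInput), RNA of the same gel region without immunoprecipitation, and RNA-seq covered WT/MLL-Af4 and I3KO/MLL-Af4 cells, the latter with germline deletion of Igf2bp3, in 3 libraries per genotype and cell type. The biological libraries held 7361, 10042 and 8685 filtered peaks in Lin− cells and 8521 and 10054 in CD11b+ cells. The technical libraries held 4040, 6494 and 4510 peaks in Lin− cells and 7586 and 7085 in CD11b+ cells. Read depth cannot be taken from peak lists, and a missing peak is no proof that the protein left an RNA untouched. Biological library 2 and technical library 5 of Lin− cells and technical library 4 of CD11b+ cells stood apart in their Malat1 or Neat1 peaks, so their peak counts are given per library.

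The RNA-seq means of marker genes matched the labelled cells in part. In CD11b+ cells the myeloid genes Mpo, Lyz2 and Elane ranked 4, 6 and 22 by the authors' mean normalized count, and Csf1r ranked 139, while Cd14 ranked 2645 and the neutrophil gene Ly6g 11435. Mpo, Lyz2, Elane and Csf1r also ranked high in Lin− cells (3, 84, 189 and 557), so they do not set the cell types apart. Itgam, which encodes CD11b itself, had a mean of only 17.0 in CD11b+ cells, but 68.7% of its exon length is shared on the same strand with Gm49368, whose mean in CD11b+ cells was 77.2 (looked up after the value of Itgam was seen). The cause of the low mean was not tested. The progenitor genes Flt3, Cd34 and Kit ranked 424, 453 and 701 in Lin− cells. Of other cell types, the erythroid gene Hba-a1 had a mean of 1268 and the B cell gene Cd79a of 146 in CD11b+ cells, and the megakaryocyte gene Itga2b of 1922 in Lin− cells. What these cells add to the RNAs below was not tested, and in bulk samples fewer cells of a type and less RNA per cell cannot be told apart.

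Not all of the RNAs were abundant. Each value is the authors' mean over all libraries of a table, both genotypes together, divided here by exon length. The tables were normalized separately, so only ranks within a table are set side by side. Malat1, a speckle RNA, stood highest in both, with 2824 normalized counts per kb in Lin− cells (rank 465 of 26503 genes with an exon length) and 976 in CD11b+ cells (rank 1545 of 25837). Gas5, a snoRNA host known as a brake on growth, followed with 1447 (rank 1069) and 453 (rank 3027). These were the only members among the top 10% of genes per kb in Lin− cells, and Malat1 was the only such member in CD11b+ cells.

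Neat1, the scaffold of paraspeckles, had 371 normalized counts per kb in Lin− cells (rank 4805) and 325 in CD11b+ cells (rank 4013). Snhg1 had 490 (rank 3693) and 126 (rank 7597), and Snhg12 203 (rank 7498) and 117 (rank 7921). The exon length used equals the whole gene for Snhg1 (2969 nt) and Snhg12 (2402 nt), and is 3760 of 4118 nt for Gas5. Values per kb of these hosts may thus be low for the spliced RNA. The imprinted RNAs lay far lower. Kcnq1ot1, which silences neighbouring genes on the paternal chromosome, had 12.3 normalized counts per kb in Lin− cells and 1.62 in CD11b+ cells. Meg3, expressed from the maternal chromosome, had 4.22 and 5.65, and H19, a maternally expressed fetal RNA, 0.373 and 5.50. The median over all genes was 30.2 per kb in Lin− and 25.3 in CD11b+ cells, so per kb these 3 RNAs were below the middle of both tables and the word abundant does not describe them. By the mean without length, Kcnq1ot1 (1144 and 151) and Meg3 (76.3 and 102) lay above the medians of 54.7 and 47.3, and H19 (0.917 and 13.5) below them. Norad, a cytoplasmic RNA that binds Pumilio proteins, had 528 (rank 3438) and 482 (rank 2860). Reads came from poly(A) RNA, and Malat1 and the long Neat1 isoform end without a usual poly(A) tail, so their means may not give their amounts in the cell.

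**Figure D1:**
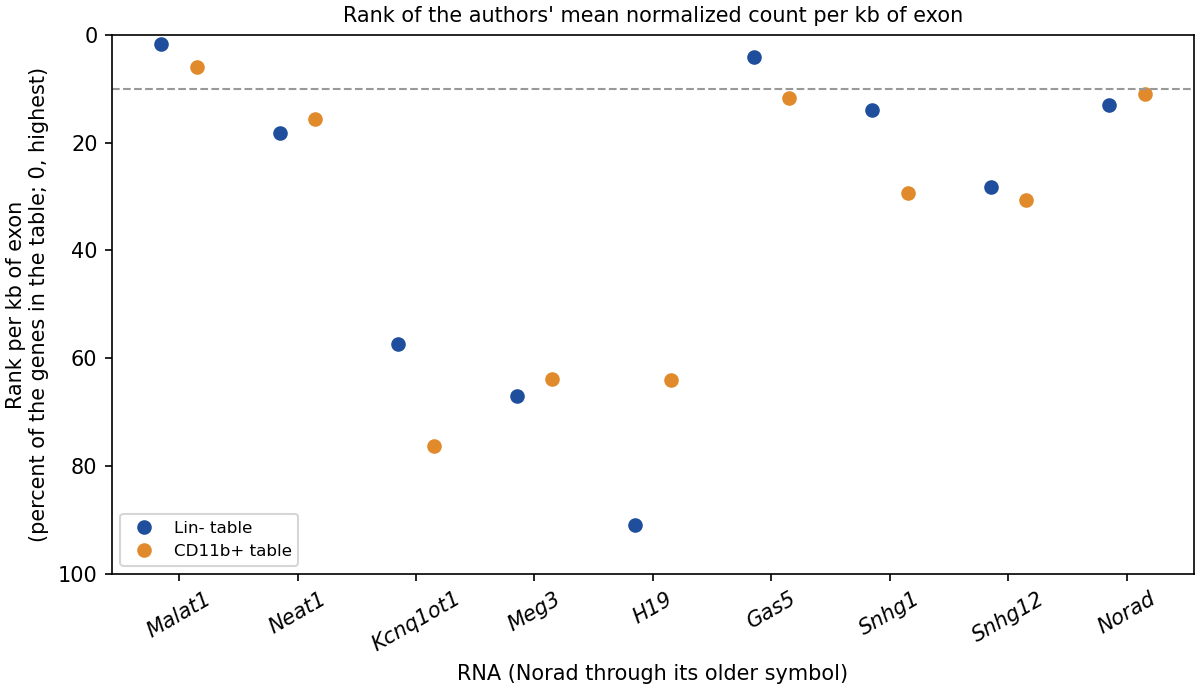
Rank of each RNA by the authors' mean normalized count per kb of exon, as a percent of the genes in its table (vertical axis, 0 is the highest), for the Lin− and CD11b+ tables; the dashed line marks the top 10%. Malat1 lies at 1.75% and 5.98%, while H19 lies at 90.9% and 64.1%.

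Malat1 and Snhg12 had a filtered peak in every biological library of Lin− cells, 2 of the 8 members, and Snhg12 alone had one in every biological library of CD11b+ cells, 1 of 8. Over all genes, 6.89% had a peak in every biological library of Lin− cells and 10.2% in CD11b+ cells. Among genes with a mean of at least 10, the shares were 10.6% and 15.3%. Since the members were selected on such counts, nothing is read from the difference.

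Malat1 had 77 of its peaks in a single library. Its filtered peaks numbered 21, 77 and 21 in the biological libraries of Lin− cells and 10, 35 and 15 in the technical ones. In CD11b+ cells they numbered 0 and 0 in the biological libraries and 0 and 34 in the technical ones. Every Lin− library thus held Malat1 peaks, and 1 of 4 CD11b+ libraries did. The libraries at 0 were at 0 before the input filter as well, although Malat1 had a mean of 6816 in that cell type and their own smInput libraries listed 1, 6 and 1 Malat1 peaks. Whether Malat1 was unbound in those 3 libraries or not called was not tested.

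Neat1 peaks numbered 25, 0 and 17 in the biological libraries of Lin− cells and 13, 0 and 10 in the technical ones. No Neat1 peak was listed in any CD11b+ eCLIP library, before or after the filter, although the smInput libraries of these cells listed 0, 3, 2 and 2. The Lin− libraries at 0 for Neat1, biological 2 and technical 5, were those with the most Malat1 peaks among Lin− libraries, and they too were at 0 before the filter. In biological library 1 and technical library 4, Neat1 had more peaks than Malat1. The technical libraries are not paired with the biological ones in the labels.

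The members together took 0.679% (95% exact binomial interval 0.505 to 0.895), 0.797% (0.632 to 0.991) and 0.449% (0.320 to 0.613) of the filtered peaks in the biological libraries of Lin− cells, a mean of 0.642% ± 0.177 (SD, n = 3) with library 2 and 0.564% without it. In the biological libraries of CD11b+ cells the share was 0.0352% (0.00726 to 0.103) and 0.0298% (0.00615 to 0.0872). The technical libraries gave 0.644%, 0.570% and 0.576% in Lin− cells and 0.0264% and 0.494% in CD11b+ cells. The share in the last library came from Malat1, so the gap between the cell types held for 3 of the 4 CD11b+ libraries. Before the input filter, the mean share in biological libraries was 0.973% in Lin− and 0.297% in CD11b+ cells, against 0.642% and 0.0325% after it. These intervals cover counting error only.

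**Figure D2:**
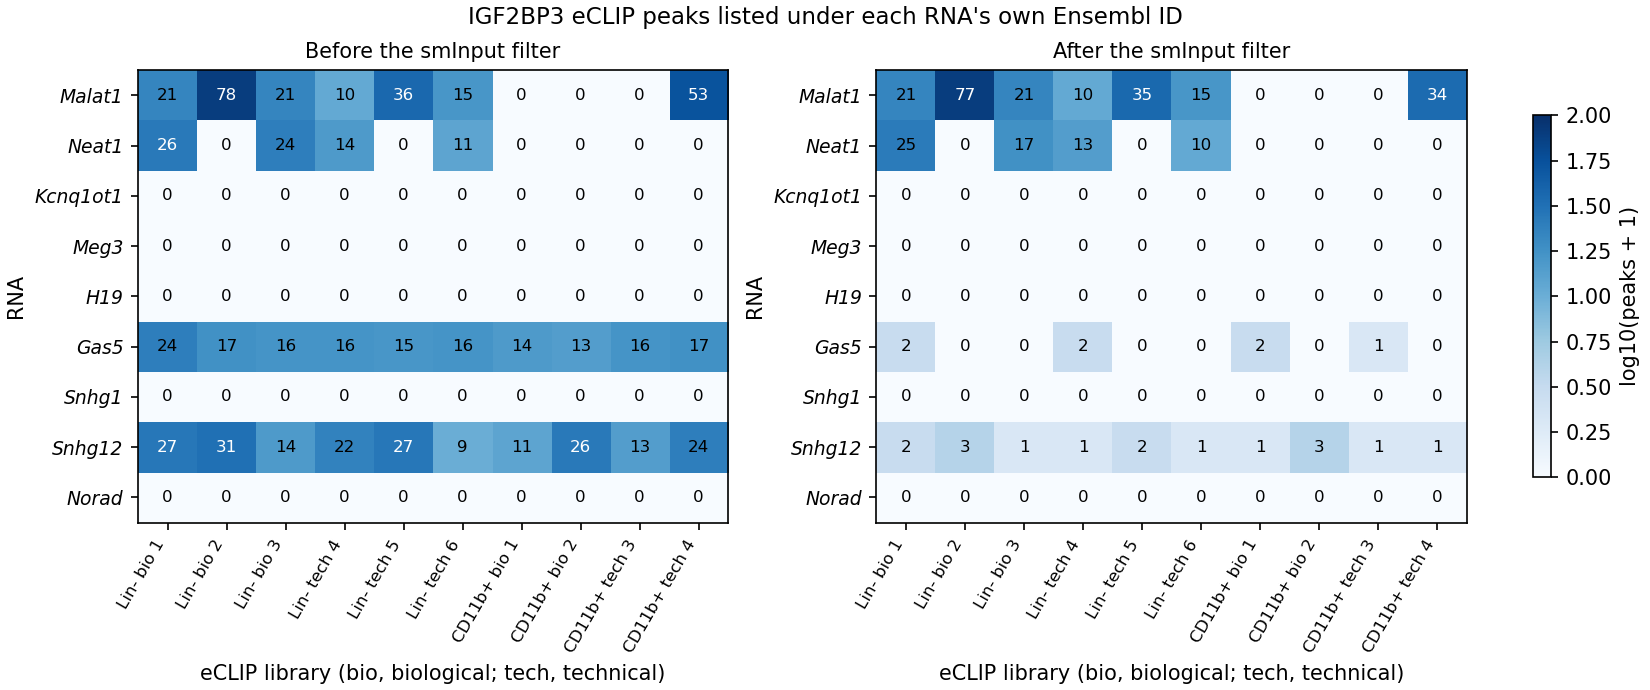
Number of peaks under each RNA's own Ensembl ID (rows) in each eCLIP library (columns) before (left) and after (right) removal of peaks that overlap smInput peaks; shading is log10(peaks + 1). Gas5 and Snhg12 fall from between 9 and 31 peaks per library to between 0 and 3, while Malat1 falls from 53 to 34 in technical library 4 of CD11b+ cells and Neat1 from 24 to 17 in biological library 3 of Lin− cells.

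Malat1 is a single exon of 6983 nt at chr19:5795690-5802672 on the minus strand of GRCm38. Of the 119 peaks in the biological libraries of Lin− cells, with the gene divided into 3 equal parts, 36 had their midpoint in the 5′ part, 29 in the middle part and 54 in the 3′ part. Library 2 gave 30, 19 and 28 of these, while libraries 1 and 3 each gave 3, 5 and 13, so the 5′ peaks came mostly from library 2. By reads listed with the peaks, 71.5%, 60.4% and 71.3% lay in the 3′ part in biological libraries 1, 2 and 3. Library 2 owed part of its count to short peaks, with a median length of 11 nt against 37 and 34 nt in libraries 1 and 3. With touching peaks joined, the counts were 19, 42 and 18, and the covered lengths were 847, 1181 and 744 nt. The excess of library 2 was thus smaller in covered bases than in peaks.

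The Malat1 peaks of the biological libraries of Lin− cells fell into 54 regions, of which 13 were found in 3 libraries and 9 in 2. Library 2 alone held 31 of the other 32, and without it there were 23 regions, of which 14 were found in both libraries left. Over all 10 eCLIP libraries, 4 regions were shared by the 7 libraries with Malat1 peaks. In technical library 4 of CD11b+ cells, 27 of the 34 Malat1 peaks overlapped a Malat1 peak of a Lin− biological library. The sequences below are the 3 regions shared by 7 libraries with the most reads, at chr19:5797373-5797441, chr19:5796007-5796090 and chr19:5798291-5798391, and the region at chr19:5797708-5797834, found in 6 libraries, which holds a CA-repeat element that peaks of 4 libraries cover. They are given 5′ to 3′ on the RNA strand, and capitals mark CACA or a longer CA repeat.
Malat1 region 1: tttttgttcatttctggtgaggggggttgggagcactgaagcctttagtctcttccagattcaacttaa
Malat1 region 2: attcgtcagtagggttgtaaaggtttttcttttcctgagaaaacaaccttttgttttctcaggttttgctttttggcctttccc
Malat1 region 3: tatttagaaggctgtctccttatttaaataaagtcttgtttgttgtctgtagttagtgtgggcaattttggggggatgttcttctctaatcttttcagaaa
Malat1 region with the 6-mer: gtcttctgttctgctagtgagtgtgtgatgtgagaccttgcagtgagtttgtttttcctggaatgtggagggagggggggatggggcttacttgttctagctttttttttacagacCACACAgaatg
The first 3 hold no such element, and the first and second begin 5232 and 6583 nt from the 5′ end.

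Neat1 spans 20771 nt at chr19:5824708-5845478 on the minus strand, and its short isoform covers 3170 nt at the 5′ end, or 15.3% of the gene. Of 42 Neat1 peaks in the biological libraries of Lin− cells, 32 lay in the 5′ part of the gene, again of 3 equal parts, and 23 overlapped the short isoform. Library 1 had 19 of 25 and library 3 had 13 of 17 peaks in the 5′ part, and 14 and 9 on the short isoform. In the technical libraries 16 of 23 lay in the 5′ part and 8 overlapped the short isoform. Reads over the short isoform come from both isoforms and were not divided between them. No Neat1 region was found in 3 biological libraries, since library 2 had none, and 11 of 28 regions were found in both others. The 3 regions below were found in all 4 libraries with Neat1 peaks and had the most reads. They lie at chr19:5843310-5843417 and chr19:5845313-5845459, inside the short isoform, and at chr19:5840697-5840806, in the long isoform only.
Neat1 region 1: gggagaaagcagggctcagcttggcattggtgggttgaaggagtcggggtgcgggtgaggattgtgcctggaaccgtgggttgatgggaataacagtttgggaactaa
Neat1 region 2: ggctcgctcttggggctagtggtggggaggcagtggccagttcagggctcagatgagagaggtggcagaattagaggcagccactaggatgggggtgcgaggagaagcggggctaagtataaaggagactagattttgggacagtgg
Neat1 region 3: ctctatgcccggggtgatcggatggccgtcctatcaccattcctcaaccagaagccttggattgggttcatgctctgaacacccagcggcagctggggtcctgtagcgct
None of the 3 holds a searched element. A further region, shared by the same 4 libraries, lies at the 3′ end of the long isoform at chr19:5824745-5824815.

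**Figure D3:**
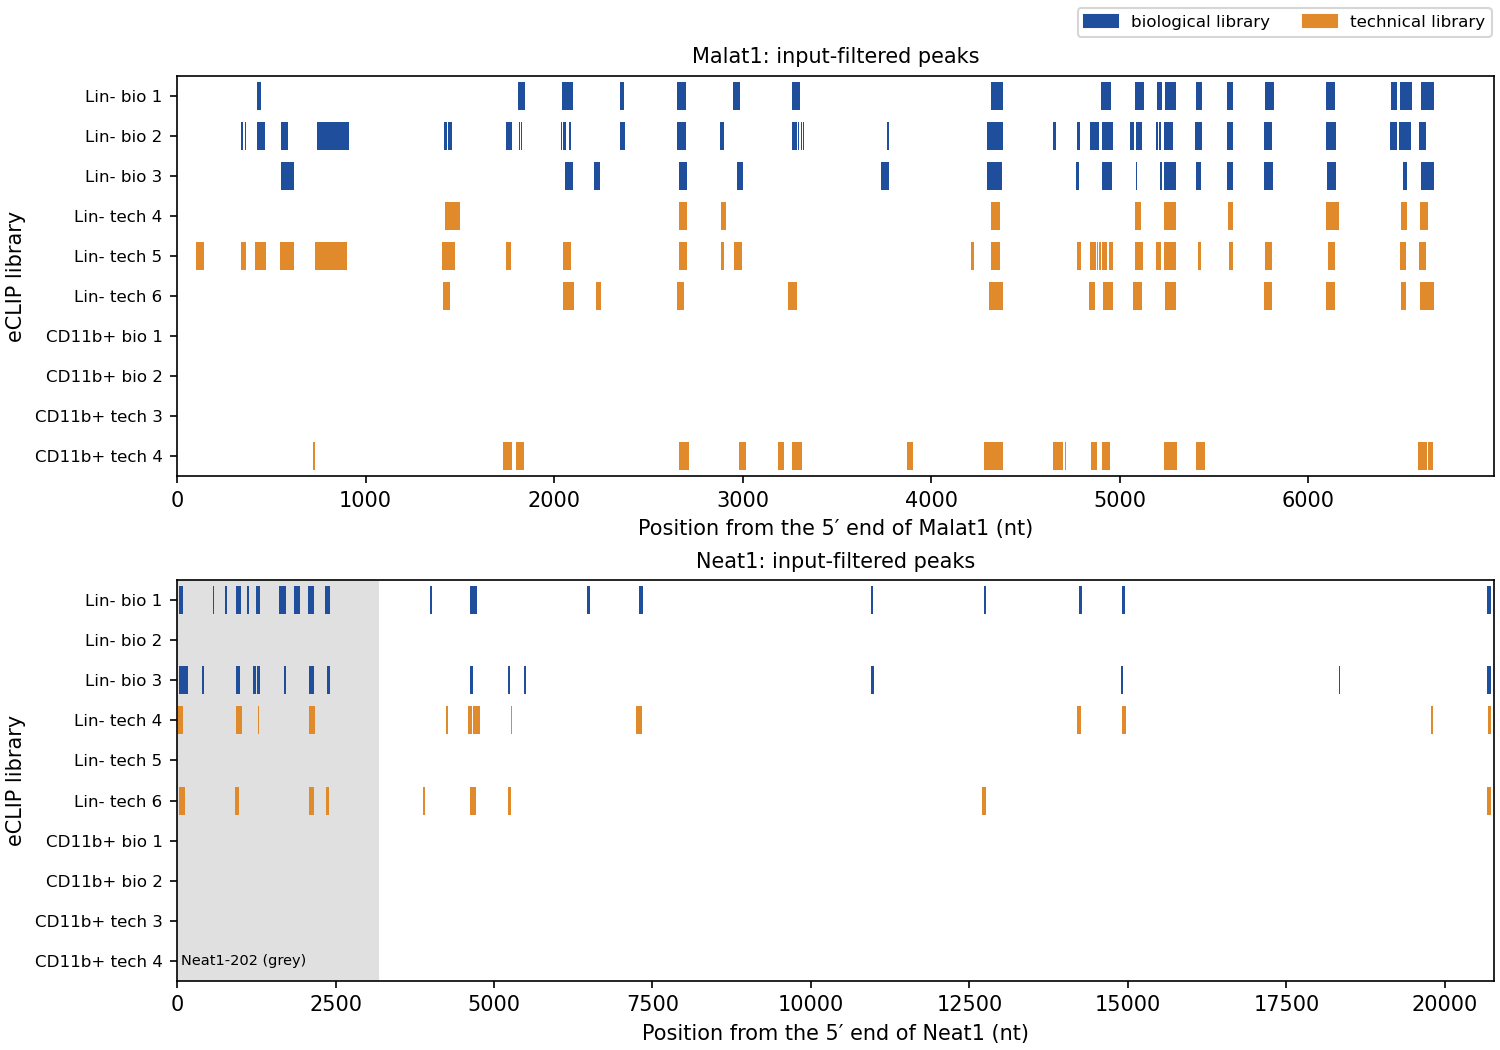
Input-filtered peaks (bars, to scale) along Malat1 and Neat1 from the 5′ end in nt (horizontal axis) in each eCLIP library (vertical axis), biological in blue and technical in orange; grey marks the short isoform of Neat1. Malat1 peaks recur in the 3′ part, and 32 of 42 Neat1 peaks of the biological libraries lie in the 5′ part.

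The snoRNA hosts behaved differently. Before the input filter, Gas5 had 24, 17 and 16 peaks in the biological libraries of Lin− cells and 14 and 13 in those of CD11b+ cells. After it, 2, 0 and 0 and 2 and 0 were left. Snhg12 had 27, 31 and 14 and 11 and 26 peaks before the filter, and 2, 3 and 1 and 1 and 3 after. Over all 10 libraries the filter removed 157 of 164 Gas5 peaks (95.7%) and 188 of 204 Snhg12 peaks (92.2%), against 21 of 234 for Malat1 (8.97%) and 10 of 75 for Neat1 (13.3%). For Malat1, 19 of the 21 were in technical library 4 of CD11b+ cells (35.8% of 53 there), and 1.10% of 181 were removed without it. For Neat1, 7 of the 10 were in biological library 3 of Lin− cells (29.2% of 24), and 5.88% of 51 were removed without it. Over all peaks of a library, it removed between 10.8% and 25.9%.

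Every Gas5 and Snhg12 peak, removed or kept, overlapped an annotated snoRNA on the same strand. This held for the 157 removed and 7 kept peaks of Gas5, whose gene holds 10 snoRNA annotations, and for the 188 removed and 16 kept peaks of Snhg12, which holds 5. The counts under the host IDs are therefore counts over snoRNA sequence. Annotated exons of Gas5 and Snhg12 share 669 and 470 nt with snoRNA genes. Reads of a free snoRNA and of its host's RNA, unspliced or with these exons, cannot be told apart. Kept peaks were often only a few nt long, with a median of 14, 6 and 35 nt for Snhg12 in the biological libraries of Lin− cells.

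Snhg1 had no peak under its own ID, but its locus was not empty. On its strand at chr19:8723475-8726443, peaks of any ID numbered 2, 11 and 11 in the biological libraries of Lin− cells, and 2 and 12 in those of CD11b+ cells. The technical libraries had 1, 9 and 11 and 2 and 9. Of these 70 peaks, 60 carried an ID that is in neither RNA-seq table nor the annotation used here, and 57 of the 60 overlapped a snoRNA. The others carried a snoRNA's ID, and the same bases could be listed under both IDs. In biological library 3 of Lin− cells, chr19:8725886-8725897 was listed with 144 reads under each. Counts of peaks at this locus therefore hold repeats and are not counts of separate sites. The filter removed 71.0% of 241 peaks at the locus. The sequences below are the regions found in the most libraries: 9 for Snhg12 at chr4:132310694-132310756 within Snord99, 7 and 6 for Snhg1 at chr19:8724868-8724943 and chr19:8725933-8725984, and 2 for Gas5 at chr1:161037006-161037034 within Snord78. A further Gas5 region of 4 nt, at chr1:161035850-161035853, was also found in 2 libraries, both of CD11b+ cells, and had fewer reads.
Snhg12 region 1: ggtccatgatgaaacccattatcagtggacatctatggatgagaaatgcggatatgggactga
Snhg1 region 1: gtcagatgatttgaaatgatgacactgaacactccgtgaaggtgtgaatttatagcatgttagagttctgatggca
Snhg1 region 2: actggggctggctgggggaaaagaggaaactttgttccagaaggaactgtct
Gas5 region 1: tctgagctgaaaataacttgtagacaatt
Snhg1 region 1 has the same first and last base as the annotated snoRNA Gm24453, and region 2 lies in Snord22.

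**Figure D4:**
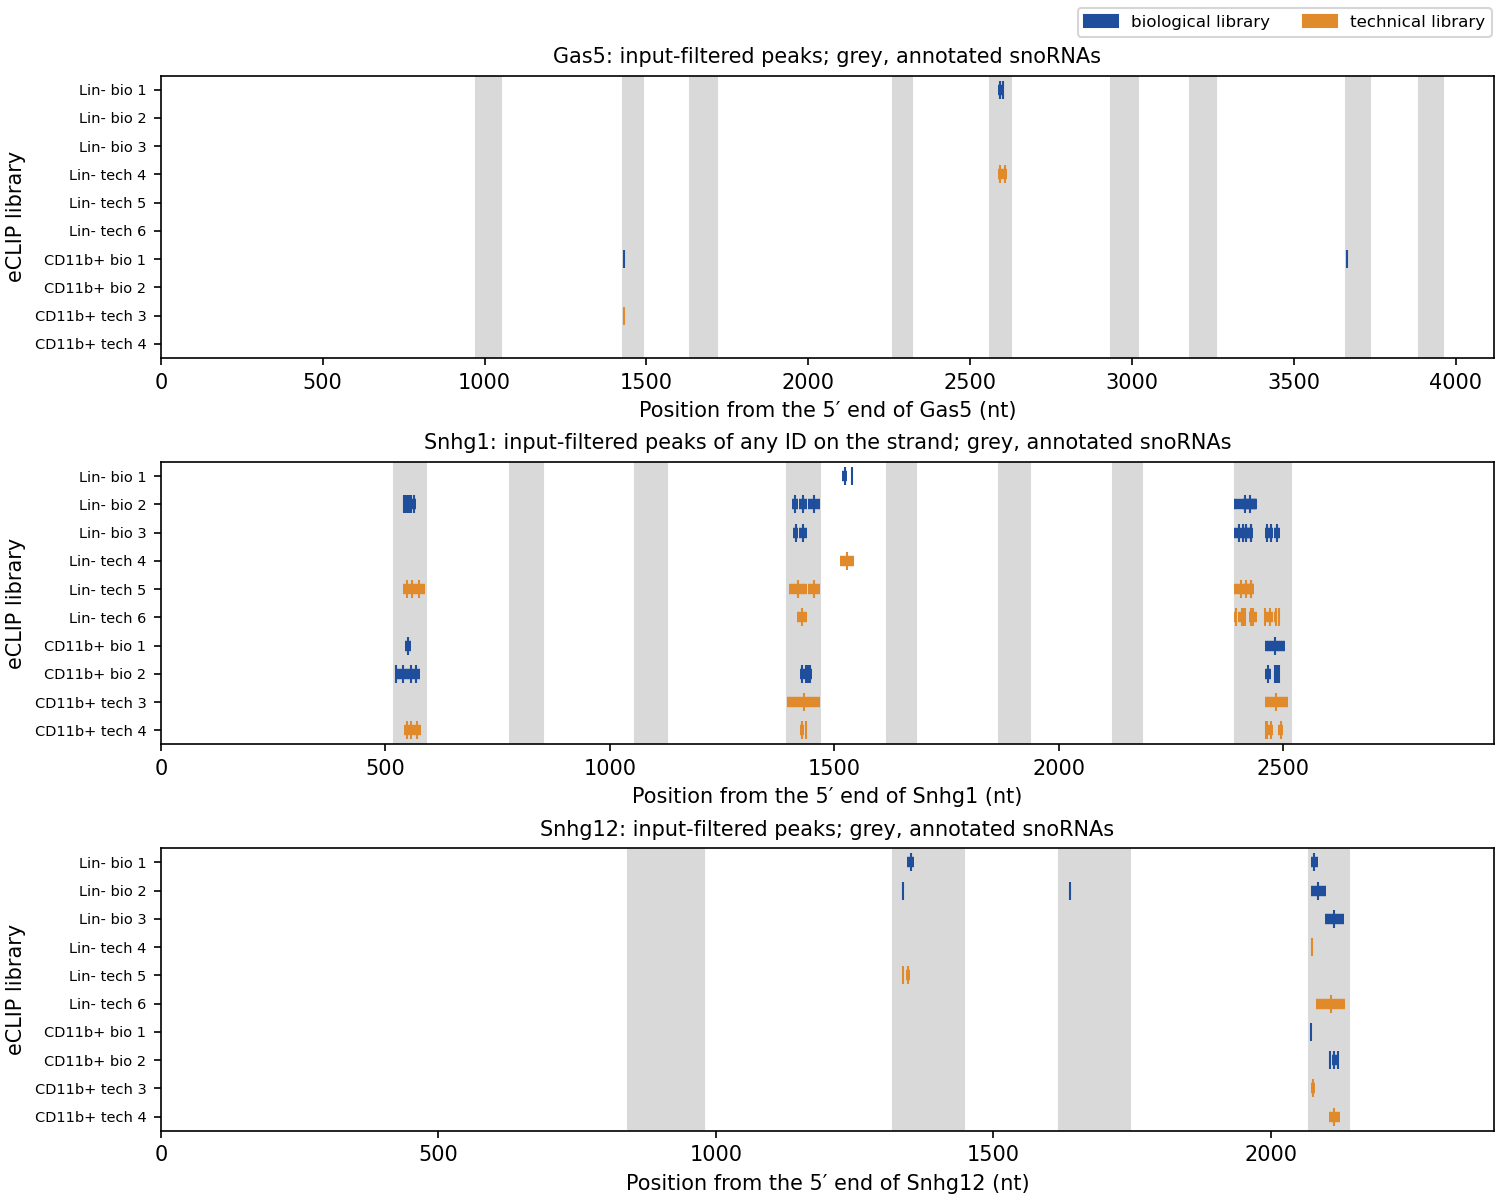
Input-filtered peaks along Gas5, Snhg1 and Snhg12 from the 5′ end in nt (horizontal axis) in each eCLIP library (vertical axis), with annotated snoRNAs in grey; a tick marks each peak's middle. All 7 Gas5 and 16 Snhg12 peaks touch a snoRNA; for Snhg1, peaks of any ID on the strand are drawn.

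Of the peaks of the members that the filter removed, 316 of 376 (84.0%) shared a base with a peak of the smInput library of the same number, and all 376 did with a peak of some smInput library of the cell type. No kept peak overlapped its own smInput, but 8 of 213 kept Malat1 peaks, 1 of 7 of Gas5 and 13 of 16 of Snhg12 overlapped a peak of another smInput library of the cell type. In technical library 5 of Lin− cells, 25 Snhg12 peaks were removed although its own smInput, with 217 peaks in all, listed none for Snhg12. How the inputs were combined was not tested. The smInput libraries of Lin− cells listed between 2 and 8 Gas5 peaks and between 0 and 9 Snhg12 peaks, and those of CD11b+ cells between 6 and 7 and between 4 and 6.

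No peak was listed for Meg3 or H19 in any of the 10 eCLIP or 10 smInput libraries, and none overlapped their genes on the strand. Kcnq1ot1 and Norad had none either, by ID or by overlap. The ID gives no evidence for these last RNAs or for Snhg1, since the highest ID in the peak lists is below theirs: 5327 genes of the Lin− table (20.1%) and 5111 of the CD11b+ table (19.7%) have such higher IDs. The overlap count rests on peaks called in the older annotation, so genes that it lacked could be missed there too.

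ACACAC or CACACA was found in 2 of 169 member peaks of the biological libraries of Lin− cells, or 1.18% (0.144 to 4.21), against 7.12% of all 26088 peaks (6.81 to 7.44). With each peak extended by 25 nt, the shares were 2.96% and 8.66%. Both matches were at 1 stretch of Malat1, which holds 3, and none of the 20 stretches in Neat1 lay on a filtered peak. In the biological libraries of CD11b+ cells 0 of 6 member peaks held one, too few to compare with 15.1% of all peaks. Member peaks of 1 RNA overlap between libraries, and the peaks differ in length, so the shares are a description and their difference was not tested.

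Among 18 other listed snoRNA hosts, 102 of 104 filtered peaks overlapped a snoRNA, and the filter removed 81.5% of 563 peaks. Snhg16 held 42 of the 104 and lost 14.3% of its 49 peaks, and without it the filter removed 87.9% of 514. Snhg16, Snhg17 and Snhg20 had a peak in every biological library of Lin− cells, with 5, 8 and 3, 1, 6 and 1, and 1, 10 and 1 peaks, and Snhg16 and Snhg17 also in CD11b+ cells. Of 606 peaks in 15 other nuclear, imprinted or miRNA-host RNAs, the filter removed 6, all in Mir142hg, which had 10. Xist held 478 of the 606. Xist, which silences the inactive X chromosome, had 90, 0 and 40 peaks in the biological libraries of Lin− cells and 13 and 79 in those of CD11b+ cells. Like Neat1, Xist was at 0 in biological library 2 of Lin− cells, yet technical library 5 held 104 Xist peaks. Dleu2 and the miRNA host Mir17hg had peaks in every biological library of both cell types, and Oip5os1, Mir142hg and Mir22hg in those of CD11b+ cells.

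Peaks were also listed under genes of proteins that work with these RNAs. Among paraspeckle proteins, Nono and Sfpq had a peak in every biological library of Lin− cells, and Sfpq, Pspc1 and Rbm14 in CD11b+ cells. Rbm14 had a mean of only 3.80 in CD11b+ cells, and 18.6% of its exon length is shared on the same strand with Gm21992. Which RNA its peaks came from was not tested. Sfpq had 9, 5 and 4 peaks in the biological libraries of Lin− cells and 3 and 2 in those of CD11b+ cells, and the filter removed none of its 36 peaks over all libraries. Pum2, which encodes a Pumilio protein that Norad binds, had 2, 1 and 1 peaks in Lin− cells and 3 and 0 in CD11b+ cells. The imprinted neighbours Kcnq1, Cdkn1c and Dlk1 had none.

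The genes whose peak counts were most like those of Malat1 over the 10 eCLIP libraries, among 2080 others with at least 10 peaks, were H3c1, Zfp791 and B2m (Pearson r of 0.904, 0.901 and 0.899). For Neat1 they were Hells, Sprtn and Mdn1 (0.970, 0.944 and 0.942), and for Snhg12 D5Ertd579e, Rassf3 and Gm25703 (0.900, 0.900 and 0.875). The libraries differ in their number of peaks, and technical libraries are not independent, so these values only rank likeness. The genes next to Malat1 in mean normalized count in Lin− cells had far fewer peaks: Huwe1, Ly6e and Thbs1 above it had 4, 5 and 4, 1, 6 and 4, and 4, 1 and 0 in the biological libraries, and Gm41804, Plac8 and Eif5a below it had 0, 0 and 0, 2, 1 and 2, and 4, 6 and 5. In CD11b+ cells, Pirb, near Malat1 in mean, had 3 and 4 peaks in the biological libraries where Malat1 had 0 and 0, while Tcn2, Tpt1-ps5, Ncl and Rpl9-ps4 had none.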

How the data were processed

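IGF2BP3 eCLIP, smInput and RNA-seq libraries were grouped by their labels. The authors called peaks per library with CLIPper on mm10, kept those with a p-value below 0.05, and removed eCLIP peaks that overlap smInput peaks; the deposited value beside each peak was read as this p-value and the last number of its name as reads. Per the file headers, smInput and eCLIP libraries differed in deduplication and calling settings. For RNA-seq, the authors mapped with STAR 2.5.3a and deposited, per cell type, a DESeq2 table; its mean over 6 libraries, with no value per library, was used. These signal values were normalized by the authors with DESeq2 before they were deposited. Its log2 fold changes, standard errors, statistics, p-values, adjusted p-values and peak marks compare the genotypes and were not used, so no genotype comparison was made.

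Peaks were assigned by Ensembl ID without version. Genes, exons and snoRNAs came from GENCODE M21, sequences from the RefSeq GRCm38 genome, and the synonym of Norad from RefSeq. Regions joined peaks of different libraries that share at least 1 nt on a strand. Python 3.11.15, pandas 2.3.3, NumPy 2.4.6, SciPy 1.17.1, pysam 0.24.0, samtools 1.23.1 and matplotlib 3.10.9 were used, and the functions were tested on simulated data. Genes named are the members, listed genes with a peak in every biological library of a cell type (otherwise the 3 with most peaks), the 3 most alike in peak counts, and the 3 next above and below Malat1 in mean. A few genes meeting it were left unreported. The members and lists were chosen with earlier results of these data known. Alternatives were peaks before the filter, a stricter p-value, overlap in place of ID, technical libraries, each biological library left out, other overlap, motif and rank rules, and 3 chosen after seeing the data. No p-value was computed; libraries far from the others in a group were marked by the ratio of gap to range against critical values.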

Additional observations from a re-analysis of the deposited data

Results flagged for a closer look

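In the smInput libraries, 4 of 20 groups of counts held a library far from the others. Chance alone gives about 1 in 20 groups only where the counts of a group vary. Kcnq1ot1, Snhg1 by its own ID, Meg3 and H19 were at 0 in every smInput library, so their groups could not be marked. The 4 of 20 is thus not set against that rate. In Lin− cells, smInput library 2 listed 1 Malat1 peak where the other 5 listed 0, and library 5 listed 0 Neat1 peaks where the others listed 1. Library 5 also listed 0 Snhg12 peaks against 6 to 9 in the others, and it held 217 peaks in all against 1047 to 1808. In CD11b+ cells, smInput library 4 listed 6 Gas5 peaks against 7 in each of the others. Apart from Snhg12, these gaps were of 1 peak among equal counts, for which the rate of 1 in 20 does not hold, so they carry no weight.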

How the results depend on the processing

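No paired analysis was possible because the results come from no test. Of 57 alternative values of the main results, 39 stayed within the spread between libraries, the interval or 1.5 times the count, and 18 moved; of 24 values for single RNAs, 19 stayed and 5 moved. Before the input filter, the members' peaks per library rose from 56.3 to 99.7 in Lin− cells and from 3 to 32 in CD11b+ cells, their share from 0.642% to 0.973% and from 0.0325% to 0.297%, and the members with a peak in every CD11b+ biological library from 1 to 2. Technical libraries gave 29.7 peaks in Lin− cells, and 18.5 peaks and a share of 0.260% in CD11b+ cells; with them added, the recurrent CD11b+ regions rose from 0 to 3. By overlap in place of ID, CD11b+ cells had 10 peaks per library and 2 members in every library. CACA in place of the longer element raised the share of Lin− member peaks from 1.18% to 5.92%, and that of all peaks from 7.12% to 18.3%. Ranking the mean without length put 2 members in the top 10% in CD11b+ cells in place of 1. Leaving out each library in turn, the recurrent Lin− regions numbered 18 to 25 in place of 34, and the members in every CD11b+ library 1 to 2; recurrent CD11b+ regions could not be counted with 1 library left. After the data were seen, 3 alternatives were chosen. Joining touching peaks gave 2 CD11b+ peaks per library. Any input of the cell type in place of the own input raised the overlap of removed peaks from 84.0% to 100%. Adding Norad was done only for the members with a peak in every biological library, and left these at 2 and 1. It could not raise them, since Norad's ID lies above the highest ID in the peak lists. Both values are among the 39 that stayed. For each change the cause was not tested.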

Other observations

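The eCLIP groups held 3 and 2 biological libraries, and RNA-seq gave 1 mean per cell type with no spread. A count of 0 for Malat1 or Neat1 changed between libraries of 1 cell type and is no measure of absence. The peak lists follow an older annotation than the RNA-seq tables. Peaks of 1 library often touched each other, so a count of peaks is no count of sites. No result here tests whether IGF2BP3 changes the level of these RNAs.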
